A study of Mus musculus with 4 samples.

Results

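The 10 genes described here encode surface proteins and growth factor receptors of blood progenitors, endothelium and platelets, with the coagulation enzyme subunit F13a1 added. They are Cd34, Cd93, Flt3, Kit, Csf1r, Csf3r, Itga2b, Pf4, F13a1 and Adgrl4. The genes were chosen by their known roles with the KO minus WT differences on these arrays already in view, so their values are a description and carry no test. Each gene was read from the probe set that the platform annotation pairs with its symbol alone. All 10 genes had exactly 1 such probe set, out of 19938 genes read in the same way.

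The material was naive CD8 T cells, isolated by flow cytometric sorting of spleen cells from BALB/c mice. Klf13 KO cells, labelled KLF13 KO, gave 2 samples, and wild-type (WT) cells gave 2 samples, each on its own single-colour Affymetrix array. No treatment is named for either genotype. The labels give neither the age of the mice, nor the structure of the knockout allele, nor whether it was deleted in all cells, nor whether the samples of a genotype came from separate animals. Without the last of these, the spread between samples may be technical, and the p-values below measure only that spread.

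CD34, KIT and FLT3 mark stem and progenitor cells of the bone marrow and are lost as blood cells mature. KIT, FLT3 and CSF1R are related receptor tyrosine kinases that bind stem cell factor, FLT3 ligand, and CSF1 or IL-34, whereas CSF3R is a cytokine receptor without a kinase of its own that binds the granulocyte factor CSF3. ITGA2B pairs with ITGB3 to form the fibrinogen receptor of platelets, and PF4 is a chemokine stored in platelet granules. Mature naive CD8 T cells are not a usual site of these proteins.

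Values are log2 probe-set levels, and differences are KO minus WT means on that scale. A probe set's level depends on how well its probes bind, so levels are compared between arrays and not between genes. In sorted bulk material, more cells of a type and more RNA per cell cannot be told apart.

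The label was checked against the 14 measured genes of a CD8 T cell core list, which also holds Cd4. Cd8a lay at 11.1 on both KO arrays and at 11.3 and 11.1 on the WT arrays, and Cd3e at 9.50 and 9.57 in KO and at 9.45 and 9.48 in WT. Cd4 lay at 4.07 and 3.47 in KO and at 3.80 and 3.88 in WT. In this list 1 gene fell, the costimulatory receptor gene Cd28 (-0.74, limma adjusted p = 0.00309), and 13 did not pass. Thy1 (-0.34, limma adjusted p = 0.109) and Themis (-0.26, 0.220) had the next smallest p. The list leaned down, with 2 of its 14 differences positive. In it, 7 genes were lower on both KO arrays than on both WT arrays, as were 23.2% of all genes. T cell genes do not show which other cells the sort held. The 12 erythroid markers averaged 8.56 and 8.61 in KO and 8.75 and 8.74 in WT. Kit read 8.89 and 9.05 in KO and 8.55 and 8.57 in WT. Whether other cells were in the sort was not tested. Klf13 itself was 3.10-fold lower in KO. Across all genes the median probe-set level was 4.71 and 4.66 on the KO arrays, against 4.59 and 4.61 on the WT arrays, and KO replicate 1 had the lowest upper quartile of probe-set levels, at 6.52.

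All 10 genes were higher on both KO arrays than on both WT arrays. Of all genes, 24.4% were ordered in this way, and 47.6% did not overlap between the genotypes in either direction. The differences ran from 0.20 for Csf3r to 1.68 for F13a1, and their median was 0.63, while the median over all genes was 0.02. They fell into a pair of ranges with no gene between: F13a1, Cd34, Adgrl4 and Cd93 differed by 1.31 or more, and the other 6 by 0.68 or less. At least 2-fold higher levels in KO were found for these 4 genes and for 29 genes of the whole table (0.145%).

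**Figure D1:**
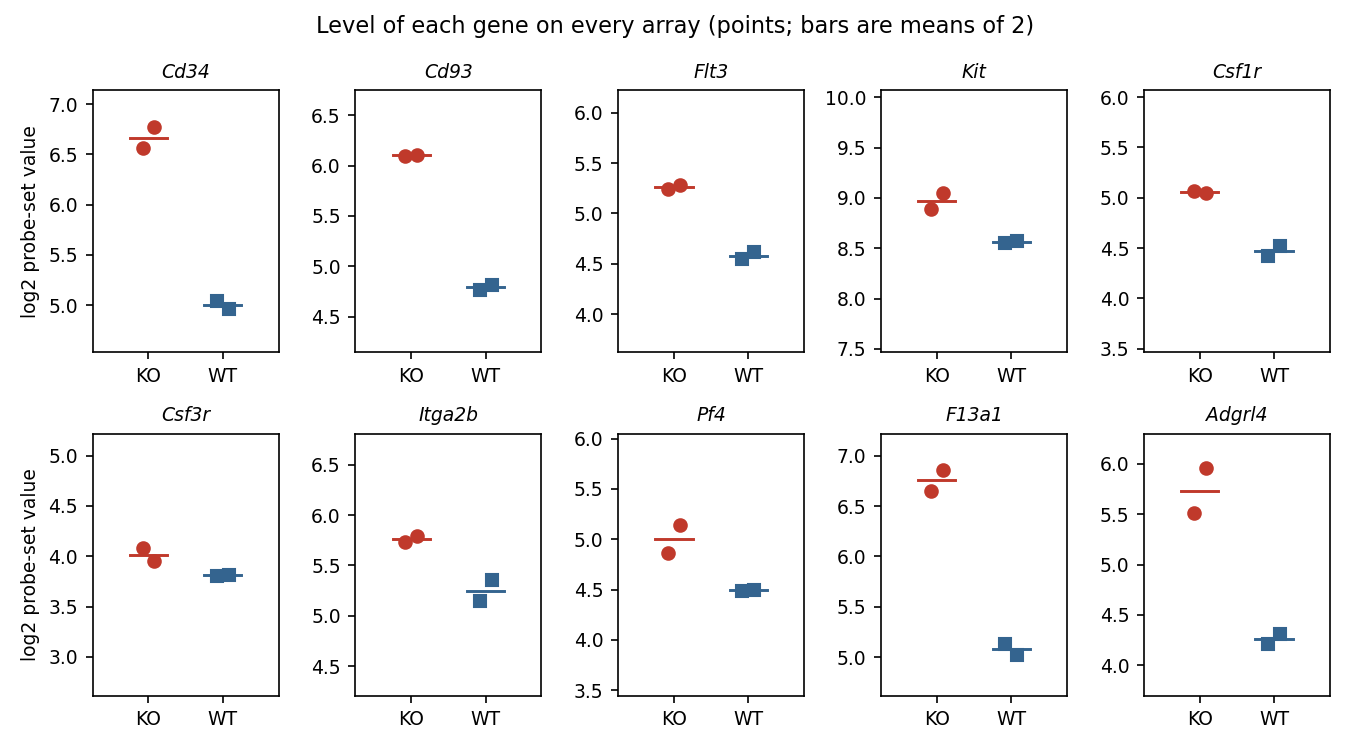
Log2 probe-set value (vertical axes, each spanning the same number of log2 units) of each of the 10 genes on the 2 KO arrays (circles, left) and the 2 WT arrays (squares, right), with bars at the means. Both KO points lie above both WT points in all 10 panels, with the smallest gap for Csf3r, where KO lies at 4.08 and 3.95 and WT at 3.81 and 3.82.

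Cd34 encodes a sialomucin of haematopoietic progenitors and of small-vessel endothelium. Its level was 6.56 and 6.77 on the KO arrays and 5.04 and 4.97 on the WT arrays. The KO mean was 3.16-fold the WT mean (difference 1.66, limma standard error 0.10), with SDs of 0.15 in KO and 0.05 in WT (n = 2 each). The arrays of a genotype lay within 0.21 of each other, and by size of the upward difference Cd34 ranked 5 among 19938 genes.

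The 250 bases before the start of Cd34 are shown, together with those of other genes further on. The genes were chosen with their differences in view, so their shared direction is part of the choice. Flt3, Kit and Csf3r were also searched, but their sequences are not shown. The sequence is RefSeq's for GRCm38.p6, at chr1:194938571-194938820 on the plus strand, 5′ to 3′, and capitals mark matches to the motifs searched (spelt out after the last sequence, on either strand).
Cd34: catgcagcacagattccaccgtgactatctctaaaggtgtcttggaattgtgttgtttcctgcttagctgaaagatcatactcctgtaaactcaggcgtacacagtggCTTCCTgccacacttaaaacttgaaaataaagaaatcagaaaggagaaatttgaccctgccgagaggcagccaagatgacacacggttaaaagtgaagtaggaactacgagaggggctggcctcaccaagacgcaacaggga

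Cd93 encodes a C-type lectin-like transmembrane protein of endothelium, of early B cells and of early progenitors. It read 6.10 and 6.11 in KO and 4.77 and 4.81 in WT. The KO mean was 2.48-fold the WT mean (difference 1.31, standard error 0.09). The KO arrays differed from each other by 0.01 and the WT arrays by 0.05, so that this gene had the closest KO replicates of the 10. No sequence is shown for Cd93.

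Among the 4 growth factor receptors the differences were smaller. Flt3, whose product drives the expansion of lymphoid and dendritic precursors, read 5.24 and 5.28 in KO and 4.55 and 4.61 in WT. It was 1.60-fold higher in KO (difference 0.68, standard error 0.09), and the replicates of each genotype lay within 0.06 of each other. Csf1r, the receptor that macrophages need for survival, read 5.07 and 5.04 in KO and 4.43 and 4.52 in WT, a 1.50-fold higher level in KO (difference 0.58, standard error 0.09). For these kinases the lower KO array lay 0.63 and 0.52 above the higher WT array, and no gap between replicates exceeded 0.10.

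Kit, the stem cell factor receptor of progenitors and mast cells, read 8.89 and 9.05 in KO and 8.55 and 8.57 in WT. The difference was 0.40 (standard error 0.10, 1.32-fold), and the KO arrays lay 0.15 apart. Csf3r, the receptor of the granulocyte growth factor, had the smallest difference of the 10, at 4.08 and 3.95 in KO and at 3.81 and 3.82 in WT (0.20, standard error 0.09, 1.15-fold). For Csf3r the gap between the KO replicates, 0.13, was as large as the gap between the lower KO array and the higher WT array, 0.13.

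Itga2b, the alpha chain of the platelet fibrinogen receptor, read 5.73 and 5.79 in KO and 5.15 and 5.35 in WT. It was 1.43-fold higher in KO (difference 0.51, standard error 0.10), and its WT arrays, 0.21 apart, were the most spread of the 10 genes. Pf4, the platelet factor 4 chemokine, read 4.86 and 5.14 in KO and 4.49 on both WT arrays. The difference of 0.51 (standard error 0.11) was the same as for Itga2b, but here the spread lay in KO, where the arrays were 0.27 apart. The bases before the start of both genes follow, for comparison with Cd34, at chr11:102469884-102470133 on the minus strand for Itga2b and at chr5:90772185-90772434 on the plus strand for Pf4.
Itga2b: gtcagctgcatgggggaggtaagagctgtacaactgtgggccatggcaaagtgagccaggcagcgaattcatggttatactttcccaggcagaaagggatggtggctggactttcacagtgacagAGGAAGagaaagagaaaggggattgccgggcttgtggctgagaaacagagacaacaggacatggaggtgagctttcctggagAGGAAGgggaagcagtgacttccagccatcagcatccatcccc
Pf4: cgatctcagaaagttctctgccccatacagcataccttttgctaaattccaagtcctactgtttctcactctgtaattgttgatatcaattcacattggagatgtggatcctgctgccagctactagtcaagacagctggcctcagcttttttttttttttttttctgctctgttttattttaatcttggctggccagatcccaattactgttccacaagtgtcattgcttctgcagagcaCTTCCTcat

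F13a1 encodes the catalytic A subunit of coagulation factor XIII, which cross-links fibrin and is found in platelets, monocytes and macrophages. It read 6.65 and 6.86 in KO and 5.13 and 5.02 in WT. It had the largest difference of the 10 genes, 1.68 (standard error 0.10), a 3.21-fold higher level in KO, which ranked 4 among all upward differences. Adgrl4 and Cd93 ranked 11 and 18. RefSeq gives F13a1 more than 1 start, and the sequence before the outer one is shown, at chr13:37050245-37050494 on the minus strand.
F13a1: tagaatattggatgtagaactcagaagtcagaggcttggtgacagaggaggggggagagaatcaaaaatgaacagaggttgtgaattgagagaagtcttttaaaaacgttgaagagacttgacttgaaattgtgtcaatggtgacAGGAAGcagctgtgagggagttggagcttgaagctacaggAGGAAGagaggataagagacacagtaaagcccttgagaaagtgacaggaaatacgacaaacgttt

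Adgrl4 encodes an adhesion G protein-coupled receptor of endothelium, also known as ELTD1. It read 5.51 and 5.96 in KO and 4.21 and 4.31 in WT. The KO mean of 5.73 ± 0.31 was 2.77-fold the WT mean of 4.26 ± 0.07 (SD, n = 2 each; difference 1.47, standard error 0.14). Its KO arrays, 0.45 apart, were the most spread of the 10 genes, yet the lower of them lay 1.20 above the higher WT array. The bases before its start are at chr3:151437632-151437881 on the plus strand.
Adgrl4: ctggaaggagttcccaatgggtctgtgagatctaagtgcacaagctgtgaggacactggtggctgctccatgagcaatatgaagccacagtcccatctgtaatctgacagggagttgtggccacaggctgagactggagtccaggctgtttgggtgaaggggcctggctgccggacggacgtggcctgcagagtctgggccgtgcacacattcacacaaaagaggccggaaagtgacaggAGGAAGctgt

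RefSeq promoter entries were searched for 8 of the 10 genes, with 10 entries in all. Cd93 had no entry, and Csf1r, on chromosome 18, was left out of the search. Shares over all entries keep that chromosome and count entries, whereas the 10 genes are counted by gene, with a match in any entry. The GGAA-containing letters AGGAAG, a core of binding sites of the ETS factors, occurred on either strand in the 250 bases before the start of 7 of the 8 genes (not Flt3), and in 29.5% of the 32851 entries in the table. The 2 windows of Kit overlap. CCACCC, the box bound by KLF factors, occurred for 3 of the 8 (Kit, Csf3r and F13a1, the last of these at its inner start) and in 28.1% of all entries. GGGCGG, the GC box, occurred for Kit and in 32.7% of all entries. AGATAA, bound by GATA factors, and TGTGGT, bound by RUNX factors, occurred for 0 of the 8, and in 9.99% and 14% of all entries. The motifs do not overlap in the sequences shown. These are letter matches in the reference strain and say nothing of binding in these cells.

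Klf13 lies on chromosome 7, and 0 of the 10 genes do. By the limma fit over all 19938 genes, 8 of the 10 passed an adjusted p under 0.05, all of them higher in KO, and Kit and Csf3r did not pass. The same fit called 2.25% of all genes, 1.19% of them as higher. Since the genes were listed with this contrast known, nothing is read from the count. It was 5 without WT replicate 1, where Csf1r, Itga2b and Pf4 also failed, and 3 (Cd34, Cd93 and F13a1) when all probe sets of the array were tested singly. Itga2b also failed without either KO array, Pf4 without WT replicate 2, and both after a further quantile normalization. Kit passed after that normalization, among the brighter genes, with a variance trend and robust moderation, and with the replicate block. Csf3r passed in none of the alternatives in which it was tested.

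**Figure D2:**
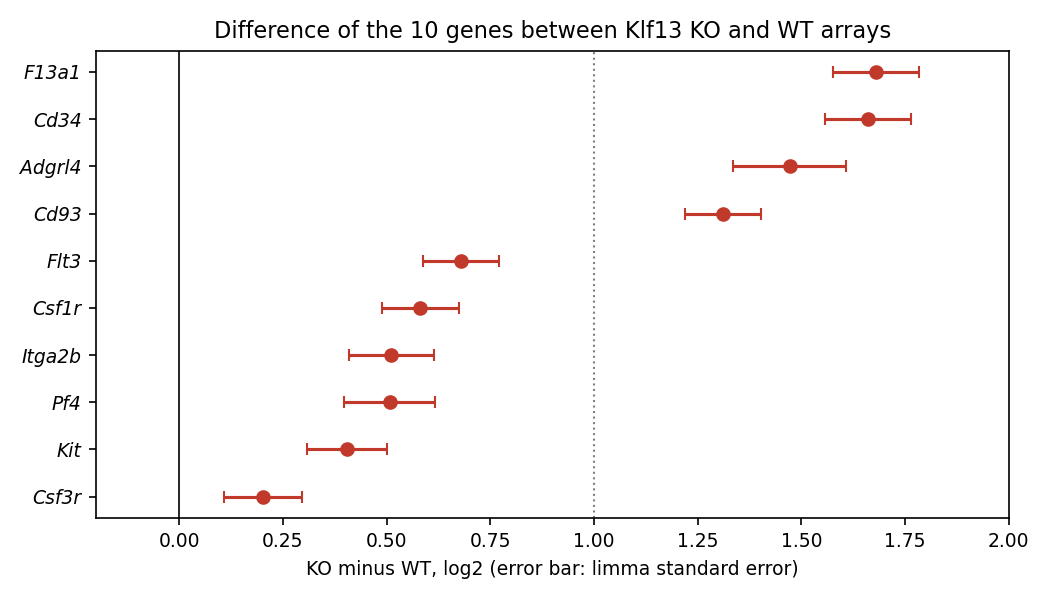
KO minus WT difference of each of the 10 genes on the log2 scale (horizontal axis), with the limma standard error as the bar, 2 arrays a genotype. F13a1, Cd34, Adgrl4 and Cd93 lie to the right of the dotted line at 2-fold, and the other 6 genes lie between 0.20 and 0.68.

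The KO arrays were not equal for these genes. KO replicate 2 was above KO replicate 1 for 8 of the 10, the exceptions being Csf1r and Csf3r, and for 54.9% of all genes. The median gap between KO arrays was 0.14 for the 10 genes and 0.13 for all genes, and that between WT arrays was 0.07 for both. The larger spread of the KO pair was shared with the rest of the table.

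The differences kept their sign under every alternative in which the gene was measured. Leaving out an array could not change a sign, since both KO arrays lay above both WT arrays for each gene. Only median centring and the further quantile normalization could have done so. The remaining alternatives, with all arrays kept, left each difference as it was. Adgrl4 ranged from 1.25 to 1.69, Cd34 from 1.56 to 1.76, F13a1 from 1.58 to 1.78 and Cd93 from 1.23 to 1.33. Kit ranged from 0.32 to 0.48, Pf4 from 0.37 to 0.64 and Csf3r from 0.11 to 0.27. In the alternatives the 4 large differences stayed above those of the other 6.

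**Figure D3:**
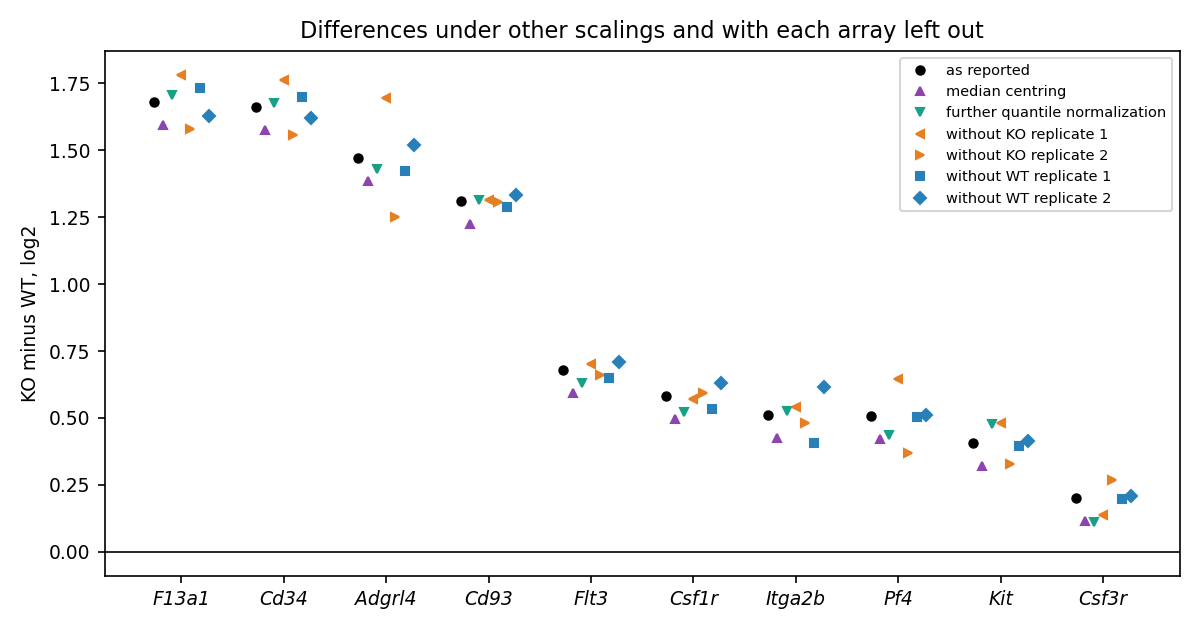
KO minus WT difference on the log2 scale (vertical axis) of the 10 genes as reported, after median centring or a further quantile normalization, and with each array left out in turn. All points lie above 0, and Adgrl4 moves most, between 1.25 without KO replicate 2 and 1.69 without KO replicate 1.

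The integrin partner and the ligands of these receptors are not among the 10 genes. They were listed with earlier results of these data known, so their values are not independent evidence. Itgb3, the beta chain that ITGA2B needs to reach the cell surface, rose 2.22-fold, at 6.50 and 6.74 in KO and at 5.45 and 5.49 in WT (difference 1.15, standard error 0.11, limma adjusted p = 4.95e-04). The alternative partner of ITGB3, Itgav, read 6.26 and 6.36 in KO and 6.17 and 6.13 in WT and did not pass (limma adjusted p = 0.440). Itgb3 lost the call when all probe sets were tested singly and kept it in the other 10 alternatives.

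Flt3l, which encodes the ligand of FLT3, rose 1.59-fold, at 8.42 and 8.60 in KO and at 7.76 and 7.93 in WT (difference 0.66, standard error 0.11, limma adjusted p = 0.0113). Flt3l is on chromosome 7, as is Klf13, with 125 measured genes between them. Only 4 measured genes separate it from Rcn3 and 5 from Dkkl1, which were 4.77-fold and 2.77-fold lower in KO and were both called by the fit, so that a gene that rose lies among genes that fell. On chromosome 7 the fit called 2.7% of 1738 measured genes. The part of this position in the rise of Flt3l was not tested.

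The ligands of the other receptors were not called. Kitl, which encodes stem cell factor, differed by 0.13 (limma adjusted p = 0.555), Il34 by 0.21 (0.528), Csf1 by 0.06 (0.839) and Csf3 by 0.13 (0.680). For Csf1, Csf3 and Il34 the KO and WT arrays overlapped. Of 6 measured ligands 1 rose and 0 fell, and their median difference was 0.13.

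**Figure D4:**
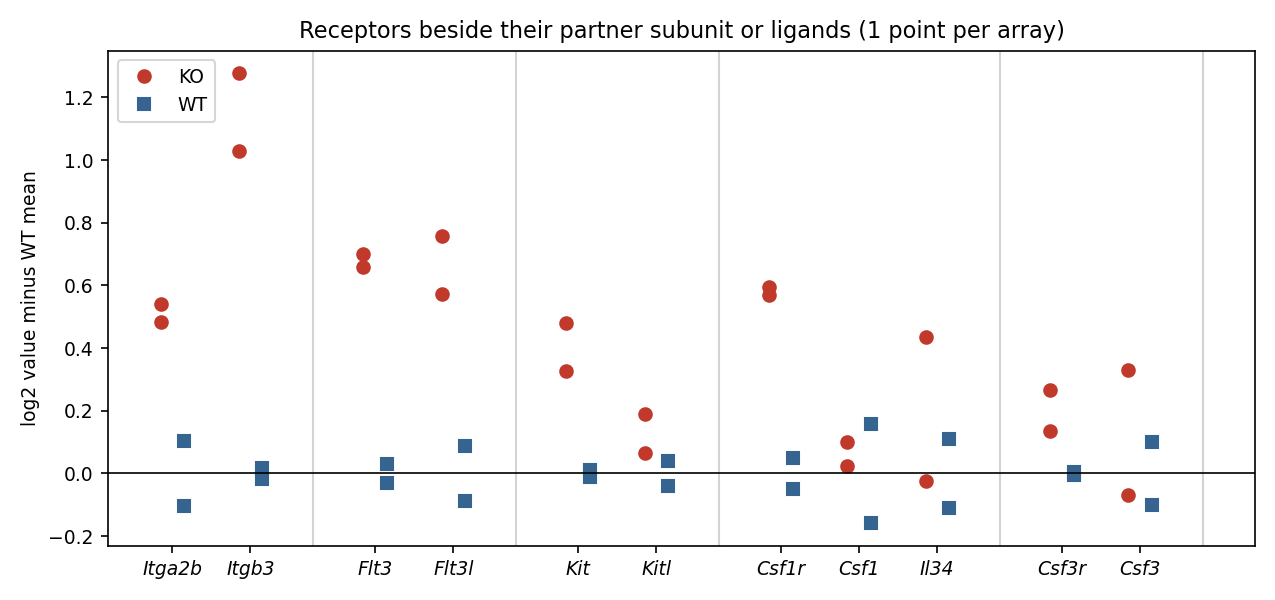
Log2 value minus the WT mean of that gene (vertical axis) on each KO array (circles, left) and each WT array (squares, right) for Itga2b with its partner Itgb3, and for 4 receptors with their ligands. Itgb3 and Flt3l are separated between genotypes, at differences of 1.15 and 0.66, whereas Csf1, Il34 and Csf3 overlap.

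Genes that act below these receptors showed little difference. Of 20 measured adaptors, kinases, phosphatases and STAT factors, limma called 0, and at an unadjusted p under 0.05 1 was higher and 0 lower. The median was 0.01, turning below 0 after median centring (-0.08) and without KO replicate 2 (-0.06). The guanine nucleotide exchange factor gene Sos1 (0.28), the tyrosine kinase gene Fes (0.21) and the phosphatase gene Ptpn6 (-0.18) had the smallest p.

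Of 23 relatives of the 10 genes by sequence or complex, Itgb3 rose and 22 did not pass, with a median of 0.16. The receptor tyrosine kinase gene Pdgfrb differed by 0.33 and the cytokine receptor chain gene Csf2rb by 0.43 (limma adjusted p = 0.109 and 0.110). Probe sets at these levels were on balance slightly higher in KO throughout the table: the median difference was 0.09 over the 2613 genes with a mean level from 4 to 5, and -0.09 over the 2519 genes from 6 to 7. Csf1r, Flt3, Pf4 and Adgrl4 lie in the first of these ranges, where 2.07% of genes were called higher. Cd34, Cd93, Itga2b and F13a1 lie from 5 to 6, where the median was -0.01 and 3.36% were called higher.

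Of 20 transcription factors of blood progenitors, 3 rose, 0 fell and 17 did not pass, with a median of 0.11, where 1.19% of all genes were called higher. Erg, an ETS factor of stem cells, endothelium and megakaryocytes, read 5.46 and 5.56 in KO and 4.85 and 4.89 in WT (difference 0.64, standard error 0.09, limma adjusted p = 0.0070). Meis1, a homeobox factor of stem cells, read 5.52 and 5.89 in KO and 5.03 and 5.13 in WT (0.62, limma adjusted p = 0.0334), and Mycn, a MYC family factor, read 5.36 and 5.45 in KO and 4.82 and 4.97 in WT (0.50, limma adjusted p = 0.0299). Mycn lost the call without KO replicate 1 (adjusted p = 0.0682) and without WT replicate 1 (0.306). Meis1 lost it after a further quantile normalization (0.0524). In this list 10 genes were higher on both KO arrays than on both WT arrays, and 4 were lower, as were 24.4% and 23.2% of all genes. The 4 lower genes, named outside the rule, were Gfi1b (-0.22), Gata1 (-0.15), Tal1 (-0.14) and Fli1 (-0.05). They did not pass.

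Of 16 other surface genes of progenitors, 2 rose, 0 fell and 14 did not pass (median 0.16). The tetraspanin gene Cd9 read 7.68 and 7.79 in KO and 7.15 and 7.21 in WT (0.55, limma adjusted p = 0.0153). The GM-CSF receptor chain gene Csf2ra read 6.25 and 6.29 in KO and 5.68 and 5.85 in WT (0.51, limma adjusted p = 0.0285). Cd9 lost the call without WT replicate 1 (adjusted p = 0.0864), and Csf2ra without that array (0.314) or without KO replicate 1 (0.0815).

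Among 10 genes of early lymphoid progenitors Ly6d rose (0.64, limma adjusted p = 0.0148) and 9 did not pass, including the terminal transferase gene Dntt (0.43) and the IL-7 receptor gene Il7r (-0.35). The median was 0.11 and turned to -0.03 among the 3 of these genes in the brighter part of the table. Ly6d, which B cells also carry, lost the call without KO replicate 1 (adjusted p = 0.0947) and without WT replicate 1 (0.105).

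Of 27 measured endothelial markers, limma called 0, and at an unadjusted p under 0.05 8 were higher and 1 lower, where 7.85% and 8.75% of all genes were. The angiopoietin receptor gene Tek differed by 0.45 (limma adjusted p = 0.0764), Vwf, the gene of von Willebrand factor, by 0.33 (0.114) and Myct1 by 0.34 (0.126). Pecam1, named outside the rule, was the 1 lower gene (-0.35, limma adjusted p = 0.132). It read 7.40 and 7.56 in KO and 7.75 and 7.91 in WT. The mean level over the list was 4.14 and 4.09 on the KO arrays, against 3.95 on WT replicate 1 and 3.999 on WT replicate 2, and the median difference was 0.17. Cdh5, which encodes the junction protein VE-cadherin and was named outside the rule, read 3.56 and 3.32 in KO and 3.62 and 3.25 in WT, with the genotypes overlapping.

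Of 17 platelet and megakaryocyte markers, Itgb3 and Cd9 rose, 0 fell and 15 did not pass, Treml1 (0.39, limma adjusted p = 0.0887) among them. The mean level over the list was 4.75 and 4.80 in KO, against 4.54 and 4.50 in WT (median difference 0.18). Of 12 erythroid markers the Rh-associated glycoprotein gene Rhag fell (-0.45, limma adjusted p = 0.0422) and 0 rose, while the transferrin receptor gene Tfrc (-0.41) and Add2 (-0.40) did not pass. The erythroid mean level was 8.56 and 8.61 in KO, against 8.75 and 8.74 in WT. Rhag lost the call without KO replicate 1 (adjusted p = 0.119), without WT replicate 1 (0.420), without WT replicate 2 (0.0941) and after a further quantile normalization (0.0674), whereas 4 erythroid genes were called lower after median centring.

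Granule and other genes of promyelocytes and granulocyte progenitors, here called the early granule list, moved with the 10 genes. Of 12 measured, 9 rose and 0 fell (median 0.93), where 1.19% of all genes were called higher. The mean level of the list was 6.22 and 6.32 in KO, against 5.14 and 5.32 in WT. Epx, the eosinophil peroxidase gene, read 4.35 and 4.62 in KO and 3.40 and 3.60 in WT (0.99, limma adjusted p = 0.00248), and Mpo, Ctsg, Elane, Prtn3 and Prg2 differed by 1.97, 1.70, 1.60, 1.71 and 1.53. Several of these were already known to rise when the list was made, so the count is not independent evidence. The part of other cells in the levels of the 10 genes was not tested.

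Of 10 basophil and mast cell genes, 3 rose and 0 fell (median 0.27): the basophil protease genes Prss34 (0.83, limma adjusted p = 0.00595) and Mcpt8 (0.63, 0.00665), and the histidine decarboxylase gene Hdc (0.69, 0.0281). Prss34 read 6.28 and 6.35 in KO and 5.32 and 5.65 in WT, and lost the call without KO replicate 1 (adjusted p = 0.0561). Hdc lost it without KO replicate 2 (0.0526) and after a further quantile normalization (0.0539). The mean level of the list was 5.03 on both KO arrays, against 4.73 and 4.75 in WT.

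Of 19 genes of mature neutrophils and monocytes, 3 rose and 0 fell (median 0.21). The lysozyme gene Lyz2 differed by 1.15, Mpeg1, the perforin-2 gene of macrophages, by 0.84 and the adaptor gene Tyrobp by 0.62. Mpeg1 lost the call after a further quantile normalization (adjusted p = 0.0629). Tyrobp lost it there as well (0.0753), and without KO replicate 1 (0.144), KO replicate 2 (0.0501) or WT replicate 1 (0.238). The mean level of this list was 3.98 and 4.01 in KO, against 3.74 and 3.72 in WT.

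Of 12 genes in the dendritic cell list, the only one that rose was Flt3l, the FLT3 ligand gene already counted among the ligands. The other 11 did not pass, among them the integrin gene Itgax (0.49, limma adjusted p = 0.0569) and Irf8 (0.47, 0.0741), and the median was 0.13. Of 11 B cell markers, the immunoglobulin mu chain gene Ighm rose (0.80) and 10 did not pass, Cd79b (0.51, limma adjusted p = 0.0702) and Cd79a (0.32) among them (median 0.16). The mean level of the dendritic list was 4.71 and 4.78 in KO, against 4.56 and 4.53 in WT, and that of the B cell list 4.95 and 4.99 in KO, against 4.77 and 4.78 in WT. In the CD8 T cell core list, Cd4 included, the median was -0.10. The mean level of that list was 8.92 and 8.94 in KO, against 9.07 and 9.10 in WT. Genes this bright leaned down throughout the table. The median difference was -0.08 over the 1409 genes with a mean level from 8 to 9, and -0.08 over the 532 from 9 to 10. The erythroid list, also at these levels, had a median of -0.12.

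**Figure D5:**
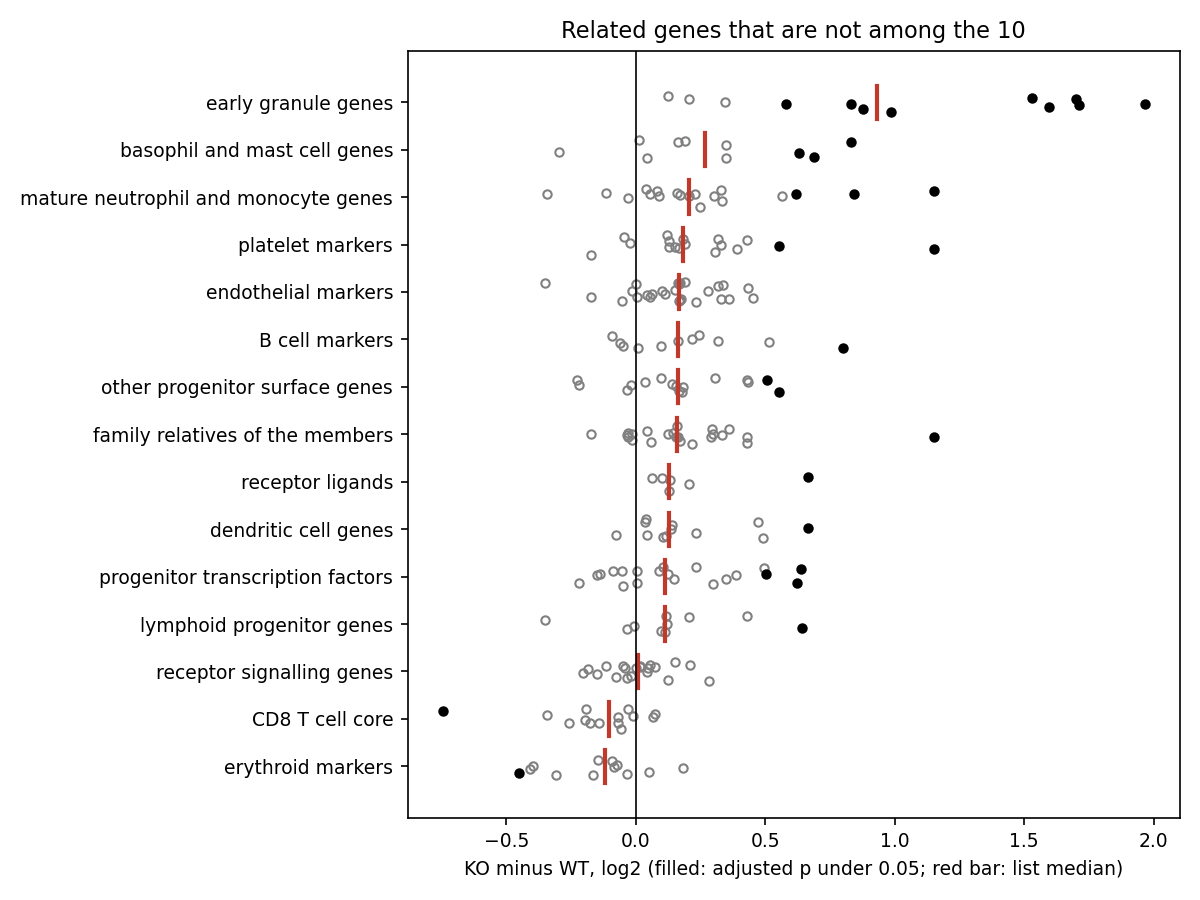
KO minus WT difference on the log2 scale (horizontal axis) of each gene in 15 lists of related genes that leave out the 10 genes, ordered by their median (red bar), with filled points for genes at a limma adjusted p under 0.05. The early granule list has a median of 0.93 with 9 of 12 genes called higher, while the other medians lie between -0.12 and 0.27.

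Genes next to the 10 on their chromosomes were also looked at. They are read from the same contrast on the same arrays, and some are also in the lists above, so they are not independent evidence. Of the 40 measured genes that lie nearest to the 10, 2 on each side, 3 rose and 0 fell. Of all genes, 1.19% were called higher and 1.05% lower. The 40 neighbours had a median difference of 0.08 and a range from -0.31 to 1.10. Ly86, the neighbour of F13a1, encodes the MD-1 protein of B cells and macrophages and read 5.45 and 5.67 in KO and 4.44 and 4.47 in WT (1.10, limma adjusted p = 4.98e-04). Ifi44l, an interferon-stimulated gene beside Adgrl4, differed by 0.64 (0.00724), and Grn, the progranulin gene near Itga2b, by 0.53 (0.0171). Grn lost the call without KO replicate 1 (adjusted p = 0.0599) or WT replicate 1 (0.152).

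Named outside the rule, for their kinship to the 10 genes, are the neighbours of Kit, Pf4 and Csf1r. Kit lies between the receptor genes Pdgfra (0.06) and Kdr (0.36, limma adjusted p = 0.143), Csf1r lies beside Pdgfrb (0.33), and Pf4 beside the platelet chemokine gene Ppbp (0.43, 0.164). None of these 4 passed in the limma fit.

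The mean profile of the 10 genes, each centred on its own mean over the 4 arrays, was 0.39 and 0.51 in KO and -0.47 and -0.43 in WT. The search for close profiles left out the 10 genes, Gm and Rik symbols, unnamed clones, small RNAs, and olfactory and immunoglobulin segment genes. Of the genes kept, the 8 with the closest centred profile over these 4 arrays were Dapl1, Wls, Prmt2, Tdrd7, Gpr83, Hp, Trgv1 and Cmtm3. Their root mean square distances were 0.02 to 0.05 on the log2 scale, against a median of 0.45 over all genes. Dapl1, a gene of naive T cells, read 9.35 and 9.49 in KO and 8.52 and 8.59 in WT, and Hp, the haptoglobin gene, read 4.89 and 5.07 in KO and 4.12 and 4.03 in WT. Of the 10 genes themselves Flt3 lay nearest to their mean profile (0.11) and F13a1 farthest (0.39). With 4 arrays, closeness reflects little more than the size of the difference between genotypes.

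Over all 15 lists, 24 of 215 distinct measured genes rose and 2 fell, where the fit called 1.19% of all genes higher and 1.05% lower. When every probe set of the array was tested singly, 2 of these 26 calls remained, Mpo and Elane. Of the 26 genes, 3 lie on chromosome 7: Flt3l, Tyrobp and Igsf6, the last of these named after its value was seen.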

How the data were processed

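RNA of 4 samples (2 Klf13 KO, 2 WT) was labelled from 200 ng by a random-primed whole-transcript method, per the labels' protocols. The authors deposited 1 log2 value per probe set and array. The submitters' processing notes name RMA and Partek, without versions. RMA quantile normalizes, so a shift of most genes would be removed. Differences of dim genes are also compressed in RMA values. The genome build is not given in the sources used here. No detection calls were used.

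Of 35556 probe sets, 21789 carry 1 gene symbol, 1621 several, and 12146 are unlisted. Symbols were updated by gene identifier to RefSeq names of GRCm38.p6 (21698 matched). Each of 19938 genes was read from its single-symbol probe set with the highest mean. limma 3.58.1 in R 4.3.3 (lmFit, eBayes, two-sided, genotype as the only term, 8.06 prior degrees of freedom) compared KO with WT, with Benjamini-Hochberg adjustment over all genes and a threshold of 0.05. The fit was tested on data simulated from the means and spreads of these arrays. It recovered 63% of changes of 1 and 96% of changes of 2 on the log2 scale, with 3 false calls. A gene that did not pass may therefore still differ. The precision is limited by the number of arrays.

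The 10 genes, the 15 lists and the tests were chosen with earlier results of these data known. Named are the 10 genes, Klf13, of each list the called genes up to 6 or else the 3 with the smallest p, called neighbours and the 8 closest profiles among the genes kept for that search. T cell checks (Cd8a, Cd3e, Cd4), Itgav, Csf1, Csf3, Cdh5, Pecam1, Gfi1b, Gata1, Tal1, Fli1, Rcn3, Dkkl1 and uncalled neighbours were named outside this rule. Alternatives left out each array, blocked on the replicate number, let the variance follow level with robust moderation, centred arrays on medians, repeated quantile normalization, kept the brighter genes, averaged probe sets per gene, or tested all probe sets singly.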

Additional observations from a re-analysis of the deposited data

How the results depend on the processing

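Over 11 alternatives the differences of the 10 genes kept their sign, and their median ranged from 0.54 to 0.68. Only median centring and the further quantile normalization could have changed a sign. The number of the 10 genes called (8) was 3 with all probe sets tested singly, and 5 to 7 with an array left out. The number of genes called in all (448) was 39 with all probe sets singly (23 of them higher in KO), 1088 after median centring (21.8% higher in KO, against 53.1% before), 831 with a variance trend and robust moderation, and 264 to 1536 with an array left out (264 without KO replicate 1, 1536 without KO replicate 2, 277 without WT replicate 1). After the brighter genes alone were tested, 43.6% of 606 calls were higher. The number of listed genes called (26) was 2 with all probe sets singly and 22 to 37 with an array left out, and that of neighbours called (3) was 0 and 2 to 5 (5 without KO replicate 2). With the replicate number as a block, the counts were 1187 genes in all, 48 listed genes and 5 neighbours, and 9 of the 10 genes. The numbers are not known to pair samples: the difference between KO arrays and that between WT arrays correlated across genes with r = 0.0074. The cause of these changes was not tested. With 2 arrays a genotype, 1 array can decide a call, and no detection limit was available for dim probe sets.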
